A study of Mus musculus with 6 samples.

Results

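The genes described here encode the enzymes that build fatty acids, triglycerides and ceramides, together with their transcription factor Srebf1. The members were a list of 33 gene symbols, and all 33 were found by exact symbol among the 35673 genes of the count table. They were followed in 6 RNA-seq libraries of mouse cornea, 3 titled Control and 3 titled Cationorm, from male C57BL/6J mice aged 6 to 8 weeks and labelled wild-type. Cationorm is an eye drop made of oil droplets of positive charge in water. In the protocol, dry eye was induced by contact lens wear of 6 h per day together with the preservative benzalkonium chloride at 0.1%, and treatment with drops of 5 µL followed over 14 days. The model's tag is on all 6 libraries. It is thus unsettled whether Control mice had the model or were untreated, and Control is used only as the title's name. Nothing in the labels says whether a library came from 1 mouse or from pooled corneas, so p-values measure the spread between these libraries, which may be technical.

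Fatty acids are made from citrate. Acly splits it to acetyl-CoA, Acaca and Acacb carboxylate acetyl-CoA to malonyl-CoA, and Fasn joins these units into palmitate, with reducing power partly from Me1. Desaturases (Scd1, Scd2, Fads1, Fads2) and elongases (the Elovl genes) then reshape the chain, and acyl-CoA synthetases (the Acsl genes) activate it. Gpam, Agpat2, the lipins and the Dgat enzymes assemble triglyceride, while Sptlc1 and Sptlc2, the ceramide synthases (Cers2, Cers3, Cers4), Degs1 and Ugcg make ceramide and glucosylceramide. At the ocular surface such lipids form epithelial membranes and, from the meibomian glands of the lid, the oily layer of the tear film. Srebf1, the lipogenic transcription factor, is known to act on many of these genes through sterol regulatory elements in promoters.

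Promoter sequences were available from RefSeq (GRCm38.p6) for 27 of the 33 genes, with 36 start sites. The letters TCACNCCAC, a form of the sterol regulatory element, were searched on both strands of the 250 bases before each start. A match was present in 346 of 32851 promoters in all (1.05%) and in 1 of the 36. That match lay 76 bases before the downstream one of the start sites listed for Acsl1, which activates long-chain fatty acids. The match and the bases around it, chr8:46490870-46490918 on the plus strand, are shown as the only place where these letters occurred in the 36. Scd1, Scd2, Fads1, Elovl3, Dgat1 and Dgat2 had no promoter sequence at hand and were not searched. The match is in capitals and reads as TCACNCCAC on the minus strand. The letters AGGTCA, repeated 4 bases apart, an element of liver X receptors, was in 5 of the 32851 promoters (0.0152%) and in 0 of the 36.
Acsl1: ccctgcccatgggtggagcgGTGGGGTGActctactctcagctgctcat

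Libraries held between 32486043 and 39193311 counts. Markers of corneal epithelium were abundant, with the keratin Krt12 at 8350 to 9075 CPM (counts scaled to library size, with TMM factors). The keratocyte gene Kera was at 169 to 186 CPM in the Control libraries and 71.6 to 152 CPM in Cationorm, without overlap. Of the 10 keratocyte markers, 4 were higher and 6 lower in Cationorm. Their sums overlapped, at 3462 to 3507 CPM in Control and 3049 to 4385 CPM in Cationorm. Transcripts of neighbouring tissues varied widely: 15 retina markers summed to 5489 to 8159 CPM in the Control libraries and 2112 to 6721 CPM in Cationorm, 15 lens markers to 105 to 3953 and 2008 to 7807 CPM, and 14 skeletal muscle markers to 161 to 1513 and 124 to 2631 CPM. The 12 pigment cell, iris and ciliary body markers were all higher in Cationorm, with sums of 567 to 1199.9 CPM in the Control libraries and 1340 to 1665 CPM in Cationorm that did not overlap. All markers of the 4 lists of neighbouring tissues had counts in at least 1 library. In whole tissue, fewer cells of a type and less RNA per cell cannot be told apart.

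Most of these genes were well expressed, and most differed little between libraries. Of the 33, 31 had a mean of at least 10 CPM, and the ratio of the highest to the lowest library was under 1.5 in 27 of the 32 genes that passed the low-count filter. Only Elovl4 and Acacb exceeded 2, at 4.01 and 5.33. Within a group, the median coefficient of variation was 6.33% in Control and 6.69% in Cationorm. Divided by exon length in the GRCm38 annotation, Scd2 had by far the highest level, 357 CPM per kb. Acly followed at 79.1, Fads2 at 56.8 and Elovl1 at 51.1 CPM per kb. Scd2 alone made up 36.9% of the members' summed CPM.

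**Figure D1:**
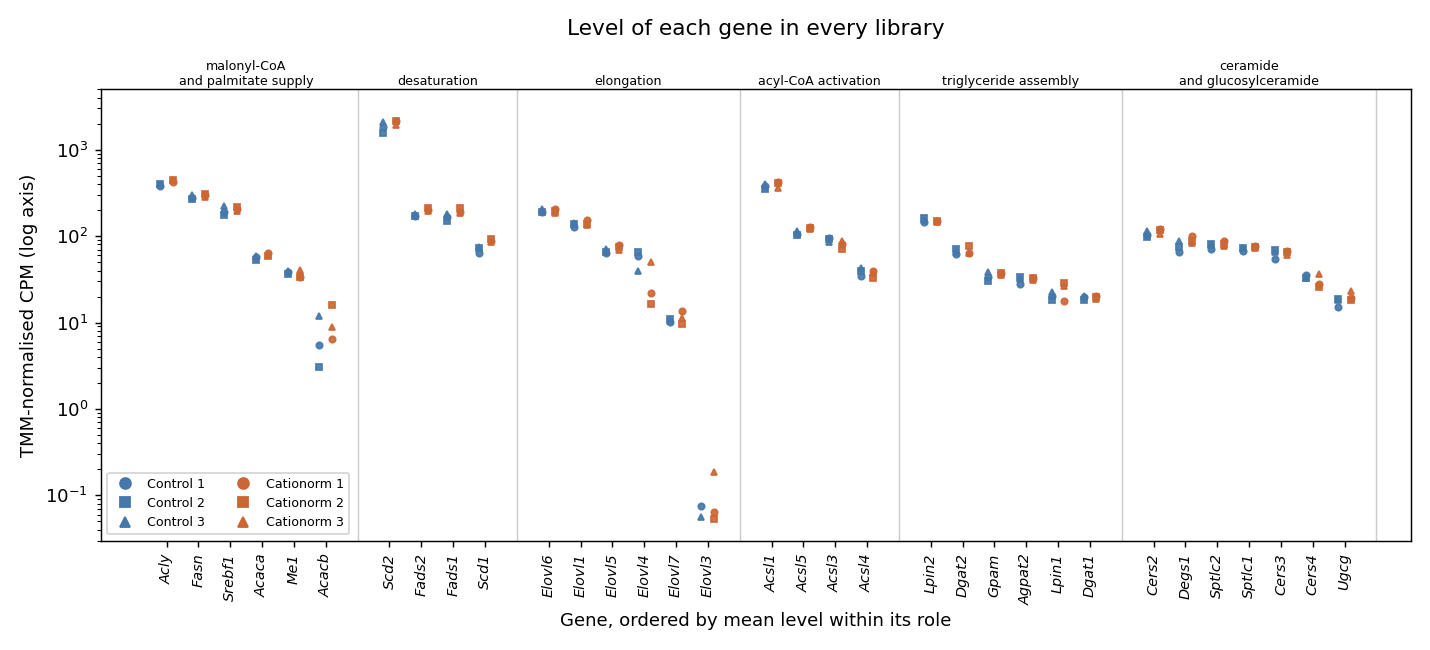
TMM-normalised CPM (log axis) of the 33 genes in each library, grouped by role and ordered by mean level; each point is 1 library, and the count of 0 for Elovl3 in Control 2 cannot be drawn. Scd2 stands above all others, Elovl3 lies near the detection limit, and Acacb and Elovl4 show the widest scatter.

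The comparison of Cationorm with Control asked how the lipid synthesis genes differed between the groups. None of the 32 tested genes passed edgeR's quasi-likelihood test with Benjamini-Hochberg adjustment over all 18804 genes (smallest adjusted p = 0.550), nor did any gene of the table (0% called). At an unadjusted p under 0.05 there were 5 of the 32, Scd1, Fads2, Acsl5, Acly and Fads1, all higher in Cationorm, against 5.16% of all genes higher and 3.57% lower. The groups did not overlap in 7 of the 32, all higher in Cationorm, against 8.73% of all genes higher and 6.09% lower. Fold changes were above 0 in 25 and below 0 in 7, with a median log2 fold change of 0.09, against 51.2% above 0 and a median of 0.01 over all genes tested. DESeq2 called 55 of 14426 genes with an adjusted p (0.381%) and none of the members, of which 7 had an unadjusted p under 0.05, against 9.43% of all genes. Limma-voom called 0 genes, and 7 members had an unadjusted p under 0.05, against 10.97% of all genes.

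These counts moved when single libraries were left out. Without Control 1 or Control 2, 2 members had an unadjusted p under 0.05, Scd1 and Fads2, against 3.93% and 4.64% of all genes. There were 3 without Cationorm 2 and 4 without Cationorm 1, against 4.19% and 3.74% of all genes. The count was 9 without Cationorm 3 and 10 without Control 3, where the share of all genes was 15.1% and 14.9%. These were also the fits with the highest shares. Among the other fits the count did not follow the share, with 4 members at 3.74% and 2 at 4.64%. Calls over all genes in edgeR were 0.00517% of those tested without Control 2, 0.0414% without Control 3 and 1.83% without Cationorm 3, and the calls among members were 0, 0 and 1. The test was tried on simulated counts of 18804 genes for this comparison. There 200 genes, drawn at random from all genes tested, were changed, and libraries varied independently of one another. The test found 10.4% of the genes with a 1.5-fold change, 56.7% with a 2-fold change and 81.8% with a 4-fold change. It also called 8 unchanged genes. The median SE of the log2 fold change was 0.087 in the members and 0.158 over all genes, so these are not the members' own rates. A missed threshold still says little about small differences. In 27 of the 32 genes the 95% interval of the log2 fold change lay within -0.5 and 0.5, a bound chosen here. The share of all genes with such an interval was not counted, so this describes the members only.

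**Figure D2:**
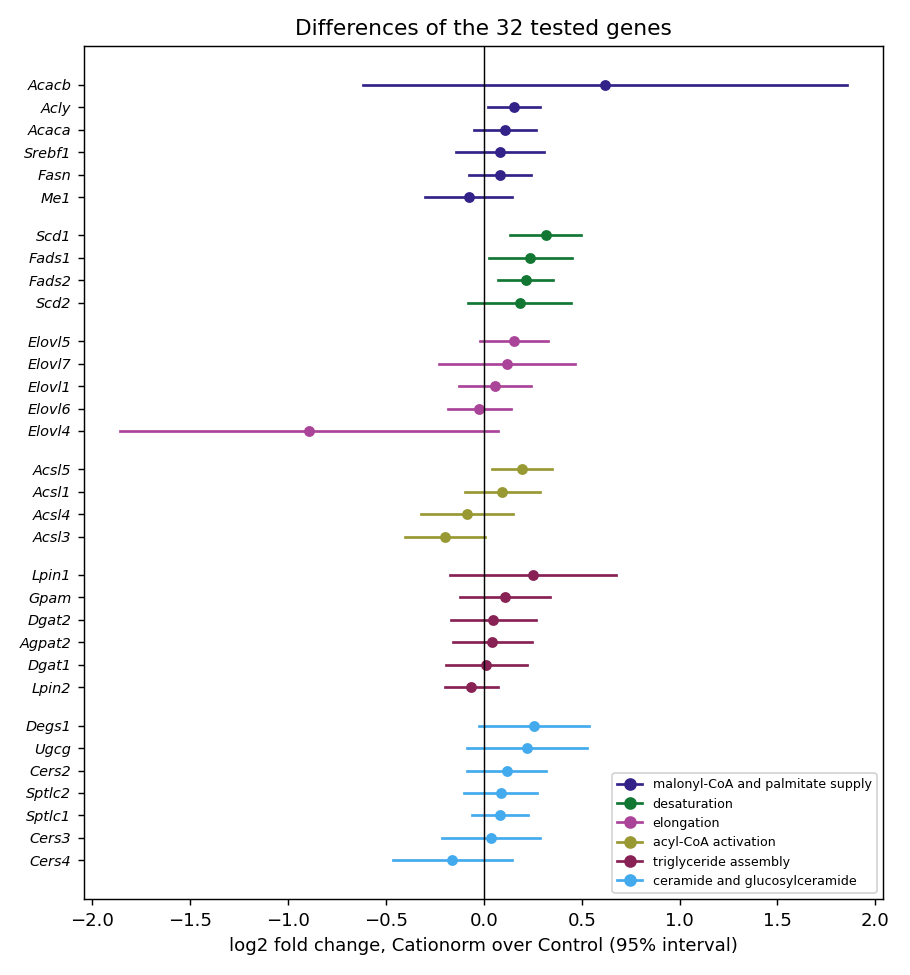
Log2 fold change of Cationorm over Control (points) with its 95% interval (lines) for the 32 tested genes, coloured by role. Intervals of 5 genes (Acly, Scd1, Fads1, Fads2, Acsl5) exclude 0 before adjustment, and those of Acacb and Elovl4 are the widest.

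Of the genes supplying malonyl-CoA and palmitate, Acly, Acaca, Fasn, Srebf1 and Me1 had log2 fold changes of -0.08 to 0.15, and Acacb, given with Lpin1, had a wide interval. Acly, the citrate-cleaving enzyme, was at 382, 399 and 404 CPM in Control 1, 2 and 3, and 424, 444 and 451 CPM in the Cationorm libraries of the same numbers. Values in this order are given for each gene. Every Cationorm library was above every Control library, though by little, with a log2 fold change of 0.15 ± 0.06 (SE) and an adjusted p of 0.550 in edgeR. Fasn, which makes palmitate, was at 273, 268 and 300.3 CPM in the Control libraries and 299.9, 305 and 286 CPM in Cationorm. The groups overlapped, and the log2 fold change was 0.08 with a 95% interval of -0.08 to 0.24. Acaca, the main carboxylase of lipogenesis, was at 57.5, 52.5 and 58.38 CPM in the Control libraries and 63.0, 58.41 and 60.2 CPM in Cationorm. Its groups did not overlap by a margin of 0.0267 CPM between Control 3 and Cationorm 2 (log2 fold change 0.11, interval -0.05 to 0.27). Acaca is uncertain in its level, since 30.4% of the 50-base words of its transcripts also occur in other genes, mostly Gm5182, which had 167 to 235 counts against 1821 to 2297 for Acaca. Of the words of Me1, the malic enzyme, 28.3% occur elsewhere, mostly in Gm7049, which had 2 to 9 counts.

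Srebf1 was at 188, 176 and 222 CPM in the Control libraries and 208, 217 and 196 CPM in Cationorm. The highest value was that of Control 3, so the groups overlapped, with 195 ± 23.7 CPM (SD, n = 3) in Control and 207 ± 10.7 CPM in Cationorm. Its log2 fold change was 0.08 (95% interval -0.14 to 0.31). Me1 was at 33.6 to 40.7 CPM, with a log2 fold change of -0.08 (interval -0.30 to 0.14).

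The 4 desaturases lay higher in Cationorm, by 1.14 to 1.25 times, and none passed the test. Scd1, which puts the first double bond into stearate and palmitate, was at 64.1, 73.2 and 74.6 CPM in the Control libraries and 86.9, 92.0 and 85.0 CPM in Cationorm. The groups were clearly apart, and Scd1 had the smallest p of all members (log2 fold change 0.32 ± 0.08 SE, interval 0.13 to 0.50, adjusted p = 0.550 in edgeR). Over all settings its adjusted p ran from 0.0715 with DESeq2 to 0.862 without Cationorm 1. Scd2, the far more abundant desaturase of the same reaction, was at 1813, 1563 and 2104 CPM in the Control libraries and 2138, 2161 and 1924 CPM in Cationorm. Control 3 lay above Cationorm 3, so these groups overlapped, and the log2 fold change was 0.18 (interval -0.08 to 0.45). Per kb, Scd2 was at 19.1 to 25.3 times the level of Scd1 in Control and 20.3 to 22.0 times in Cationorm. Few of their 50-base words occur in other genes, 4.56% for Scd1 and 3.97% for Scd2.

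Fads2, the delta-6 desaturase that opens the path to long polyunsaturated fatty acids, was at 172, 169 and 179 CPM in the Control libraries and 200.0, 209 and 193 CPM in Cationorm. Fads1, the delta-5 desaturase of the same path, was at 167, 148 and 182 CPM in the Control libraries and 191, 209.7 and 186 CPM in Cationorm. In both genes every Cationorm library exceeded every Control library, for Fads1 narrowly between Control 3 and Cationorm 3. The log2 fold changes were 0.21 ± 0.06 (SE) for Fads2 and 0.24 ± 0.09 for Fads1, and each had an adjusted p of 0.550 in edgeR. Both were lowest in Control 2 and highest in Cationorm 2, as was Scd2. The pigment cell, iris and ciliary body sum was also lowest in Control 2 and without overlap between the groups, and its part in the desaturase values was not tested. Fads3, a related gene that is no member, was at 15.3 to 21.0 CPM in the Control libraries and 22.7 to 25.0 CPM in Cationorm. Scd3 and Scd4, also no members and expressed at low levels, had overlapping groups and log2 fold changes of -0.08 and 0.08.

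**Figure D3:**
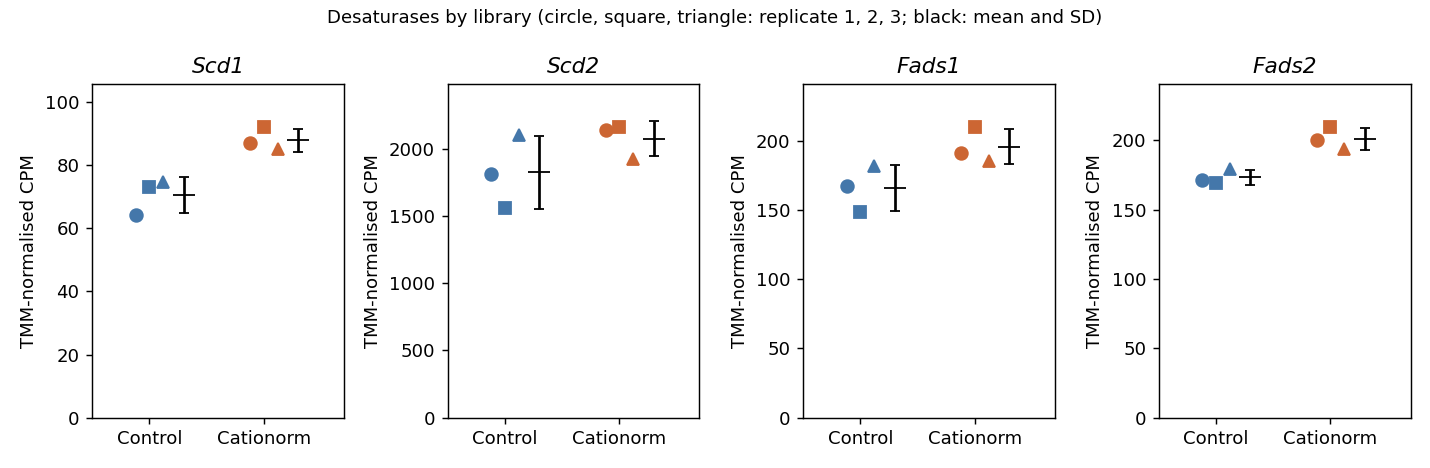
TMM-normalised CPM of Scd1, Scd2, Fads1 and Fads2 in each library (circle, square and triangle for replicates 1, 2 and 3), with the mean and SD of each group in black; axes start at 0. The groups do not overlap for Scd1, Fads1 and Fads2, and overlap for Scd2.

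Among the elongases, Elovl4 had the largest difference, and the other tested ones had log2 fold changes of -0.02 to 0.15. Elovl6, which elongates palmitate to stearate and had the most counts of the elongases, was at 192, 191 and 208 CPM in the Control libraries and 205, 193 and 183 CPM in Cationorm, with overlapping groups and a log2 fold change of -0.02 (interval -0.19 to 0.14). Elovl1, Elovl5 and Elovl7, elongases of saturated or polyunsaturated chains, had log2 fold changes of 0.06, 0.15 and 0.12, each with an interval that included 0. Elovl3, known from sebaceous and meibomian glands, had 0 to 7 counts per library and was removed by the low-count filter. Its highest level was 0.186 CPM, against a limit of 0.0750 to 0.0952 CPM that a count of 0 allows, taking 3 counts and counting error only. The meibomian wax ester enzymes Awat1 and Awat2 were low. Awat1 had a count in 1 library only, at 0.0577 CPM, and Awat2 was at 0.557 to 0.712 CPM, above that limit in every library. The whole list of 10 meibomian and sebaceous markers summed to 127 to 172 CPM in Control and 114 to 130.3 CPM in Cationorm, and most of this was Far1, a fatty acyl-CoA reductase that many cell types express.

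Elovl4, which makes very long chain fatty acids and is known from photoreceptors and skin, was at 59.5, 65.9 and 39.8 CPM in the Control libraries and 21.9, 16.4 and 50.6 CPM in Cationorm. Cationorm 1 and 2 were low, while Cationorm 3 lay among the Control libraries. Over all 6 libraries the log2 fold change was -0.89 ± 0.41 (SE; interval -1.86 to 0.07, adjusted p = 0.550 in edgeR). Without Cationorm 3 it was -1.52, with an adjusted p of 0.0372, the one call of a member in any setting; that fit called 350 of 19170 genes (1.83%). The adjusted p of Elovl4 ran from 0.0372 to 0.862 over all settings.

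The retina markers moved in nearly the same way. Their summed level was 8159, 7104 and 5489 CPM in the Control libraries and 2687, 2112 and 6721 CPM in Cationorm, with 14 of 15 lower in Cationorm by fold change and none of the 15 at 0 in all libraries. Ordered by level, the libraries fell in the same sequence for Elovl4 and the retina sum except that Control 1 and Control 2 changed places. Acsl3, an acyl-CoA synthetase of lipid droplets, had exactly the library order of the retina sum, at 95.8, 92.5 and 86.4 CPM in the Control libraries and 80.7, 71.7 and 86.9 CPM in Cationorm. Its range was far narrower, with a log2 fold change of -0.20 ± 0.09 (SE). Cers4, a ceramide synthase, was likewise lowest in Cationorm 2 and Cationorm 1, at 26.0 and 28.1 CPM against 32.7 to 36.3 CPM in the other 4 libraries. Its highest library was Cationorm 3, whereas that of the retina sum was Control 1. Me1 also was lowest in Cationorm 2 and Cationorm 1, at 33.6 CPM in each, and highest in Cationorm 3. Exons of Acsl3 and Cers4 overlap Utp14b over 5.60% and Vmn2r-ps89 over 7.22% of their length. The related genes Elovl2 and Acsl6, which are no members and were picked after their values were seen, were at 3.33 and 22.8 CPM in Cationorm 1 and 3.26 and 19.8 CPM in Cationorm 2. In the other 4 libraries Elovl2 was at 7.34 to 9.96 CPM and Acsl6 at 34.0 to 37.9 CPM. The part of retinal RNA in these values was not tested.

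**Figure D4:**
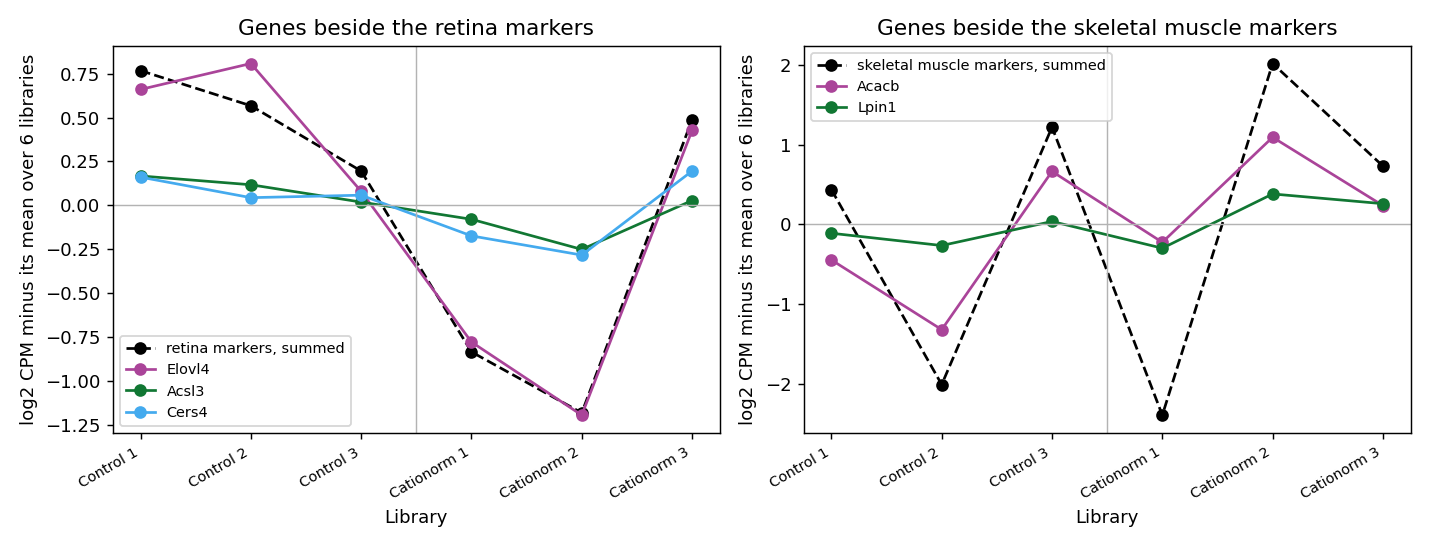
Log2 CPM minus its own mean over the 6 libraries, for Elovl4, Acsl3 and Cers4 beside the summed retina markers (left) and for Acacb and Lpin1 beside the summed skeletal muscle markers (right). Elovl4 tracks the retina sum closely, with Cationorm 1 and 2 low, and Acacb is highest in Cationorm 2 and lowest in Control 2.

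Of the acyl-CoA synthetases, Acsl1 had the most counts, at 376, 350.1 and 398 CPM in the Control libraries and 425, 410.0 and 364 CPM in Cationorm. Cationorm 3 fell among the Control values, and the log2 fold change was 0.09 (interval -0.10 to 0.28). Acsl5, a synthetase linked to triglyceride synthesis, was at 106, 104 and 114 CPM in the Control libraries and 128, 123 and 119.9 CPM in Cationorm. Its groups did not overlap, with a log2 fold change of 0.19 ± 0.06 (SE; adjusted p = 0.550 in edgeR). The libraries fell in the same order for Acsl5 as for the pigment cell, iris and ciliary body sum, whose part in it was not tested. Exons of Acsl5 overlap Zdhhc6 on the other strand over 8.31% of their length, and Acsl1 overlaps Gm45244 over 9.91%, so without a stated strand setting some reads could belong to either gene. Acsl4, which prefers arachidonate, was at 33.1 to 42.5 CPM with a log2 fold change of -0.08 (interval -0.32 to 0.15).

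Apart from Lpin1, given below, the triglyceride genes were close to level between the groups. Lpin2, a phosphatidate phosphatase and the member of this group with the most counts, was at 147, 159.9 and 155 CPM in the Control libraries and 148, 148 and 146 CPM in Cationorm, a log2 fold change of -0.06 (interval -0.20 to 0.07). Dgat2, which adds the last acyl chain, was at 62.3, 70.5 and 65.5 CPM in the Control libraries and 64.1, 76.7 and 64.2 CPM in Cationorm, with overlapping groups. Its log2 fold change was 0.05 (interval -0.17 to 0.26), and that of Dgat1, the other enzyme of this step, was 0.01 (interval -0.20 to 0.22). Gpam and Agpat2, which add the earlier acyl chains, had log2 fold changes of 0.11 and 0.04 with intervals that included 0.

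Lpin1, the lipin known from muscle and fat, varied more than Lpin2. It was at 20.4, 18.3 and 22.6 CPM in the Control libraries and 17.9, 28.7 and 26.4 CPM in Cationorm, with the lowest and the highest value both in Cationorm libraries (log2 fold change 0.25, interval -0.17 to 0.68). Acacb, the carboxylase isoform known from muscle, was at 5.55, 3.03 and 12.0 CPM in the Control libraries and 6.47, 16.1 and 8.91 CPM in Cationorm. Its groups overlapped widely, and the log2 fold change of 0.62 had an interval of -0.62 to 1.85. It ran from 0.16 without Cationorm 2 to 1.29 without Control 3.

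Lpin1 was ordered over the libraries much like the sum of the muscle markers, and Acacb like the sum of the adipocyte markers. The skeletal muscle sum was 879, 161 and 1513 CPM in the Control libraries and 124, 2631 and 1079 CPM in Cationorm, with all 13 tested markers of 14 above 0 in log2 fold change, none of them called, and Tnnc2 at 0 in 4 libraries. As in Lpin1, the lowest library was Cationorm 1, followed by Control 2 and Control 1, and the highest was Cationorm 2. The 10 adipocyte markers summed to 37.6, 31.5 and 46.2 CPM in the Control libraries and 40.05, 58.8 and 45.2 CPM in Cationorm, in the same library order as Acacb. Most of this sum was Lipe, at a mean of 24.6 CPM, and Plin4, at 10.6 CPM. Lipe was also counted among the genes of triglyceride handling and lipid droplets. The fat-specific Adipoq and Plin1 were at 0 in all Control libraries and at no more than 0.372 and 0.212 CPM in Cationorm. Of the 5 tested adipocyte markers, 4 were higher. The part of muscle and fat in the values of Acacb and Lpin1 was not tested.

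In the ceramide branch, 6 of 7 genes had log2 fold changes above 0, against 51.2% of all genes tested, and none passed the test. Sptlc1 and Sptlc2 form the serine palmitoyltransferase that starts the pathway. Sptlc1 was at 67.8, 72.3 and 73.6 CPM in the Control libraries and 77.5, 75.3 and 73.8 CPM in Cationorm, without overlap but with only 0.154 CPM between Control 3 and Cationorm 3 (log2 fold change 0.08, interval -0.06 to 0.23). Sptlc2 was at 70.7, 80.8 and 78.3 CPM in the Control libraries and 87.1, 80.4 and 76.4 CPM in Cationorm, with overlap and a log2 fold change of 0.09. Degs1, the desaturase that completes ceramide, was at 65.4, 74.2 and 87.1 CPM in the Control libraries and 99.6, 88.5 and 82.7 CPM in Cationorm. Control 3 lay above Cationorm 3, and the log2 fold change of 0.26 ± 0.12 (SE) had an interval of -0.02 to 0.54.

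Cers2, the synthase of very long chain ceramides and the member of the branch with the most counts, was at 103, 98.7 and 116 CPM in the Control libraries and 120.5, 118 and 105 CPM in Cationorm, with overlap (log2 fold change 0.12, interval -0.08 to 0.32). Cers3, the synthase of the ultra long ceramides of skin barriers, was at 53.8, 69.5 and 65.6 CPM in the Control libraries and 68.1, 65.9 and 59.7 CPM in Cationorm, a log2 fold change of 0.04 (interval -0.22 to 0.29). Ugcg, which makes glucosylceramide, was at 15.0, 18.6 and 18.1 CPM in the Control libraries and 19.0, 18.2 and 23.0 CPM in Cationorm. Control 2 lay above Cationorm 2, and the log2 fold change was 0.22 (interval -0.09 to 0.53).

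Across the libraries, members were lowest most often in Control 2 (12 of 32) and Control 1 (11 of 32), against 22.1% and 17.9% of all genes tested. They were highest most often in Cationorm 1 (11 of 32) and Cationorm 2 (8 of 32), against 21.4% and 18.0% of all genes. Control 3 was the lowest library for 0 members, against 12.6% of all genes tested, the smallest such share of any library. The members' summed level was 4950, 4726 and 5493 CPM in the Control libraries and 5619, 5632 and 5267 CPM in Cationorm, where Control 3 exceeded Cationorm 3.

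Among other genes of the same pathways, none of them members, 0 were called in each of 4 lists. Over all genes, 51.2% had a log2 fold change above 0, and an unadjusted p under 0.05 was found in 5.16% higher and 3.57% lower in Cationorm. Of 18 further genes of fatty acid supply and elongation, 10 were higher and 8 lower in Cationorm, 2 had an unadjusted p under 0.05 higher and 1 lower, and the median log2 fold change was 0.03. The smallest p were those of Fads3 and of Acss2, which makes acetyl-CoA from acetate and was at 73.2 ± 2.68 CPM (SD, n = 3) in Control and 87.5 ± 9.49 CPM in Cationorm. Of 20 tested genes of triglyceride handling and lipid droplets, 16 were higher and 4 lower, 5 had an unadjusted p under 0.05 higher and 0 lower, and the median was 0.11. Mgll, which breaks down monoglyceride, was at 152, 138 and 245 CPM in the Control libraries and 318, 291 and 281 CPM in Cationorm. Its log2 fold change of 0.73 ± 0.21 (SE) was larger than that of any desaturase among the members, with an adjusted p of 0.550 in edgeR. The library order of Mgll was that of the pigment cell, iris and ciliary body sum, whose part in it was not tested. Mogat1, which re-esterifies monoglyceride, was at 1.53 ± 0.304 CPM in the Control libraries and 2.45 ± 0.276 CPM in Cationorm.

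Of 22 tested further genes of ceramide and sphingolipid metabolism, 14 were higher and 8 lower, 2 had an unadjusted p under 0.05 higher and 1 lower, and the median was 0.05. They included Smpd1, the acid sphingomyelinase, at 59.2 ± 5.17 CPM in the Control libraries and 69.8 ± 0.804 CPM in Cationorm, and Ormdl3, an inhibitor of serine palmitoyltransferase, at 73.9 ± 4.28 and 64.7 ± 3.48 CPM. Of 14 genes that control lipogenesis, 10 were higher and 4 lower, 0 had an unadjusted p under 0.05, and the median was 0.08. Insig1, which holds sterol-sensing complexes in the endoplasmic reticulum, was at 286, 243 and 319 CPM in the Control libraries and 321, 358 and 309 CPM in Cationorm, lowest in Control 2 and highest in Cationorm 2 like Scd2, Fads1 and Fads2. Mbtps1, the protease that starts the cleavage of sterol regulatory element binding proteins, had a log2 fold change of 0.16 (interval -0.06 to 0.38).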

How the data were processed

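RNA from mouse cornea was extracted with TRIzol and made into Illumina TruSeq libraries after mRNA enrichment, per the labels' protocols. The deposited table holds raw whole-number counts per gene symbol, per the file headers. DESeq2, GRCm39 and mm39 are named, without a role, in the submitters' processing notes. Neither aligner nor counter, annotation or strandedness is given in the sources used here. Columns were matched to samples by library name and groups taken from titles.

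Counts were filtered with filterByExpr (18804 of 35673 genes kept), normalised by TMM and tested with edgeR 4.0.16 in R 4.3.3 (glmQLFit, glmQLFTest), Cationorm against Control, no covariate, with Benjamini-Hochberg adjustment at 0.05. The SE is the log2 fold change over the root of F, and 95% intervals use moderated degrees of freedom. Levels are TMM-normalised CPM. Exon lengths, overlaps and shared 50-base words come from GENCODE M21 (GRCm38). The procedure was tested on simulated counts. Alternatives were other size factors, no filter, DESeq2 1.42.0, a stricter filter (50 counts in total, with 1 CPM in 3 libraries), limma-voom (limma 3.58.1), a replicate block and each library left out. All replicate pairs differed by more than sampling noise (lowest chi-square over its degrees of freedom 27.7).

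Members and lists were chosen with earlier results of these data known. All members are accounted for. Values in every library are given for the member of each role with the most counts and that with the smallest p, for members with an unadjusted p under 0.05 or groups that did not overlap, and for Fasn, Scd1, Srebf1, Dgat2, Sptlc2 and Ugcg. Of each related list, the 2 genes with the smallest p are named. Acsl3, Cers3, Cers4, Acacb, Elovl2, Acsl6, Scd3 and Scd4 are given in addition, chosen after their values were seen.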

Additional observations from a re-analysis of the deposited data

How the results depend on the processing

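No member was called under any alternative except Elovl4 without Cationorm 3, so the count of members called was 0 to 1 when a library was left out and 0 otherwise. Over all genes, edgeR called 0 with every scaling and filter and with the replicate block, DESeq2 called 55, and leaving out a library gave 0 to 350 (1 without Control 2, 8 without Control 3, 350 without Cationorm 3). The median log2 fold change of the members was 0.07 to 0.14 with a library left out and 0.08 to 0.09 otherwise. Of 416 member values under alternatives, 403 kept direction and side of the threshold. The sign turned in 12 values of 8 members, each by leaving out a library: with ranges of -0.0266 to 0.0859 for Agpat2, -0.0653 to 0.0936 for Cers3, -0.00486 to 0.185 for Srebf1, -0.0483 to 0.0502 for Dgat1, -0.0580 to 0.0925 for Dgat2, -0.00900 to 0.0990 for Elovl1, -0.0651 to 0.0180 for Elovl6 and -0.0211 to 0.213 for Elovl7. The cause was not tested. Deviations from the group mean of same-numbered libraries correlated at -0.18, -0.31 and -0.16 over genes, and those of differently numbered libraries at -0.17 to 0.35. Whether the replicate numbers pair the samples cannot be told from this, since any other variation between libraries enters these correlations too. With the replicate block 2 members, Scd1 and Fads2, had an unadjusted p under 0.05 in place of 5. The share of all genes was 4.67% in place of 8.73%. No member was called with the block (smallest adjusted p = 0.699 in edgeR). Scd1 and Fads2 had an unadjusted p under 0.05 under every alternative run. For Elovl3, depth was too low for a comparison.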
